A study of Caenorhabditis elegans with 2 samples.

Results

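The genes described here are the cuticle collagen genes of Caenorhabditis elegans named col-, taken as every protein-coding gene whose symbol in the Ensembl annotation of WBcel235 starts with col-. There were 156 of them among 19973 protein-coding nuclear genes. RefSeq product names call all 156 a collagen or a protein with the nematode cuticle collagen domain, and 149 of the 156 name the cuticle itself. Binding was measured by ChIP-seq, which sequences DNA fragments that were precipitated with a chromatin protein, for the nuclear hormone receptor NHR-10. The samples were 2 biological replicates of 1 group: whole L4 larvae of strain OP239, mixed sex, with genotype unc-119(ed3) III and the insertion wgIs239, which carries nhr-10 tagged with eGFP. Both replicates carry the transgene and the unc-119 mutation, and the lists of both used the same control alignment. The promoter that drives the tagged gene is not given in the sources used here. In whole animals, binding in a few cells and weak binding in many cells cannot be told apart, and no RNA was measured.

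The cuticle is the collagen-rich exoskeleton of the worm. The hypodermis (epidermis) secretes a new one at each molt, and its collagens carry Gly-X-Y repeats that form triple helices, which are trimmed, secreted and cross-linked. Collagen genes are switched on and off in waves within each molting cycle, so that L4 larvae of unlike age within the stage express different sets. NHR-10 is known mainly from the intestine, where it takes part in the induction of the propionate shunt, a pathway that breaks down propionate when the vitamin B12 route is low.

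The DNA under several of the stronger regions at col- promoters is shown first, in the sense of the gene, in lower case with copies of 3 motifs, on either strand, in capitals. GATAA is the core of sites for GATA factors, which act in hypodermis and intestine. AGGTCA is the core recognition element of many nuclear receptors. TATAAA is the TATA box consensus. No copies overlap in the stretches printed. Each sequence is centred on the summit of the best pooled region and comes from the RefSeq copy of WBcel235 (ce11). For col-159 only the stretch outside untranslated exons is printed. The 2 genes with an optimal peak come first (col-93 at III:10985736-10985836, minus strand; col-176 at X:10077638-10077738, plus strand), and neither stretch holds any of the 3 motifs.
col-93: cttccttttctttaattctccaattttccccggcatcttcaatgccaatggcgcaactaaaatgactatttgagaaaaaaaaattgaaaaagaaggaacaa
col-176: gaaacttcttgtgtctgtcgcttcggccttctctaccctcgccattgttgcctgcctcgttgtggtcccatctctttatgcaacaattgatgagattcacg
The next 2 belong to genes among the 10 of highest pooled signal and hold none of the motifs either (col-80 at II:10706911-10707011, plus strand; col-145 at V:9163115-9163215, minus strand).
col-80: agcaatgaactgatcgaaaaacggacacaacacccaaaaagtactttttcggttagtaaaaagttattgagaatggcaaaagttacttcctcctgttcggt
col-145: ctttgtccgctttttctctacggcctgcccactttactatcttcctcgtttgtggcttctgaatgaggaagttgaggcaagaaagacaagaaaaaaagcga
The last ones were picked because they hold a motif, so their motifs are no sample of the family. They show the one AGGTCA copy found (col-142 at V:6830787-6830887, plus strand, printed as its reverse complement). They also show TATAAA copies upstream of starts (col-156 at V:11450380-11450480, minus strand; col-159 at V:13199385-13199439, minus strand; col-160 at V:13202204-13202304, minus strand; col-162 at V:13441856-13441956, plus strand). At col-156 the copy printed last is the one just upstream of the start, and the other lies farther upstream.
col-142: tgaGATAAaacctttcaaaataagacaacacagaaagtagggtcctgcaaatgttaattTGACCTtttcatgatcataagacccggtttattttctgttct
col-156: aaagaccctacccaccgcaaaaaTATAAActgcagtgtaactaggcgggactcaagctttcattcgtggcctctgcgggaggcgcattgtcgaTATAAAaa
col-159: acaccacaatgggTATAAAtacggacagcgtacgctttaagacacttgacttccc
col-160: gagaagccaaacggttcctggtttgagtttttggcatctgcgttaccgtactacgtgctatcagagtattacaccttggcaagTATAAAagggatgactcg
col-162: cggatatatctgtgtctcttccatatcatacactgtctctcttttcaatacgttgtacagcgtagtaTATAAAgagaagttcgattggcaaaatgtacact

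Each gene was given a promoter window from 1000 bp upstream to 200 bp downstream of each transcript start, and a region counted for a gene when its summit, the base of highest enrichment, lay in that window. The deposited optimal list held fewer than 1000 peaks, and each of them was among the top regions by signal of the list called on both replicates pooled, with no other region between them. That pooled list held 17445 different regions of peaks and background, and the replicate lists held 21319 and 22317. A region in these long lists is a candidate only: 17.9% of the pooled regions, 15% of those of replicate 1 and 15.9% of those of replicate 2 had a q-value of 0.05 or less. Signal is the authors' value per region, its scale is not stated, and it is compared within 1 list only, where rank 1 is the highest signal. There is no second condition and there are no read counts, so the col- genes are described by counts and medians beside the other 19817 protein-coding genes, without a test.

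In the pooled list with this window, NHR-10 regions at col- promoters were present at about the background share. In the optimal list their share was lower. An optimal peak lay in the window of 2 col- genes, col-93 and col-176, or 1.28% of the family, against 2.83% of the other protein-coding genes. A pooled region lay in the window of 44 col- genes (28.2%), against 28.1% of the others. In replicate 1 a region was found for 60 col- genes (38.5% against 32%), and in replicate 2 for 55 (35.3% against 31.8%). Both replicate lists held a region for the same 30 col- genes (19.2% against 19.5%).

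**Figure D1:**
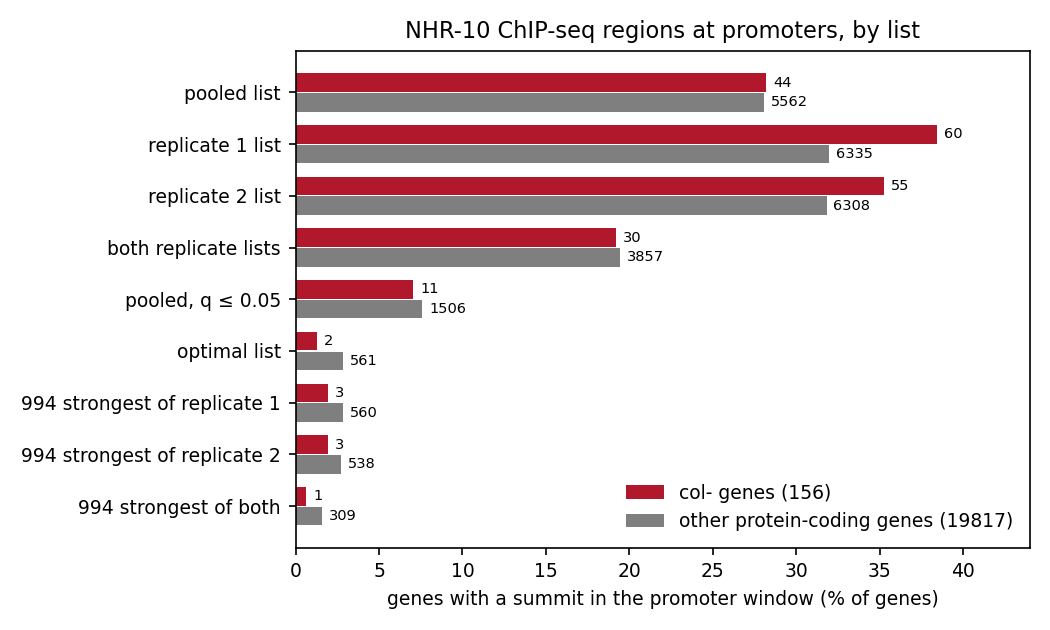
Horizontal bars give the percentage of col- genes (red) and of other protein-coding genes (grey) with a summit in the promoter window, by list, and the number at each bar counts the genes. The 2 bars of the pooled list are of nearly the same length (28.2% and 28.1%), while the red bars of the optimal list and of the strongest regions are shorter than the grey.

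Regions with a q-value of 0.05 or less were found at 11 col- genes in the pooled list (7.05% against 7.6%), at 12 in replicate 1 (7.69% against 7.64%) and at 13 in replicate 2 (8.33% against 7.8%). In both replicates they were found at 8 col- genes (5.13% against 4.62%). When the strongest regions of each replicate were taken instead, as many as the optimal list holds, 3 col- genes were reached in replicate 1 (1.92% against 2.83%), namely col-93, col-156 and col-176. Another 3 were reached in replicate 2 (1.92% against 2.71%), namely col-62, col-93 and col-159. Only col-93 was reached in both (0.641% against 1.56%). The optimal count of the family thus rests on few genes, and the members differ by list.

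Where col- genes had a pooled region, their median signal was near that of other genes. The median signal over the 44 genes was 23.3, against 22.5 over the other genes with a pooled region. The median col- gene stood at percentile 52.5 of all protein-coding genes with a pooled region, with quartiles of 25.7 and 70.7. In replicate 1 the median percentile was 49.6 and in replicate 2 it was 42.7. In the pooled list 2 of the 44 (4.55%) were among the highest 10% of genes.

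The strongest col- region was that of col-93. Its signal was 76.6 in the pooled list (rank 318), 38.4 in replicate 1 (rank 357) and 41.6 in replicate 2 (rank 334). Both replicates therefore placed it near the same rank, and its −log10 q-value was 3.25 in replicate 1 and 3.51 in replicate 2. The optimal peak spans III:10985574-10985997 (ce11), and its summit lies 177 bp upstream of the start of col-93, outside the collagen gene but inside an annotated intron of dhc-4. The same peak is the nearest optimal peak of the neighbouring col-92, 2533 bp upstream of its start and outside its window. A separate optimal peak, with signal 82.8 and rank 251, lies 1770 bp upstream of the next collagen gene, col-94. That peak falls outside the 1000 bp window, and no protein-coding gene has it in its window. The neighbouring genes col-92, col-93 and col-94 thus hold 2 optimal peaks between them, of which 1 counts for col-93.

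The optimal peak of col-176 differs between the replicates. Its signal was 62.7 in the pooled list (rank 526), 44.8 in replicate 1 (rank 219) and 19.8 in replicate 2 (rank 2554). Replicate 1 ranks it above col-93, and replicate 2 places it outside its strongest regions by the same count. Its −log10 q-value was 3.25 in replicate 1 and 1.91 in replicate 2. The summit of X:10077476-10077899 lies 91 bp downstream of the start, in the coding exon of col-176 itself, and no other gene has it in its window. It is the one optimal summit within the body of any col- gene (0.641% of the family), while 1.60% of the other genes hold one. These shares are not adjusted for gene length, whose median is 1220 bp in the family and 2038 bp in the other genes.

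The genes just below the optimal list show how close the next members come. The lowest optimal peak had a pooled signal of 49.6. The highest col- region without an optimal peak, at col-159, had 48.1 (rank 1080), followed by col-63 with 43.6 (rank 1409) and col-62 with 43.3 (rank 1435). These 3 genes differ in their replicates. For col-63 the signal was 21.0 in replicate 1 (rank 1854) and 23.1 in replicate 2 (rank 1681), so both replicates gave a similar rank. For col-62, whose promoter is used to drive expression in adult hypodermis, it was 12.1 in replicate 1 (rank 7820) and 33.5 in replicate 2 (rank 631). The col-62 region is thus strong in replicate 2 alone.

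col-159 and col-160 are neighbouring genes with similar sequence. The best pooled region of col-159, V:13199177-13199600, has its summit 5 bp upstream of a start, and replicate 2 gave it a signal of 35.6 (rank 519). In replicate 1 the best region in the col-159 windows had 24.8 (rank 1220) but lies at the start of col-160, because a longer col-159 transcript model starts there, and at the pooled region itself replicate 1 ranked only 9536. For col-160 the pooled signal was 34.4 (rank 2495), with 24.8 in replicate 1 (rank 1220) and 25.5 in replicate 2 (rank 1309), 65 bp upstream of its start. The summit of replicate 1 lies 271 bp from the pooled one, so that similar ranks at col-160 do not mark the same summit. At col-159 the ranks differ. The best region of col-159 has another copy, 95.2% identical over 146 bp, within V:13201961-13202106 next to col-160, so reads could be placed at either, and whether they were was not tested. An optimal peak with signal 56.0 (rank 710) also lies 1095 bp downstream of the nearest start of col-159, beyond its 3' end and in the window of F57B1.9.

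Among the remaining genes of high signal, col-156 had similar ranks in the replicates but not the same summit. Its signal was 38.3 in the pooled list (rank 1906), 27.0 in replicate 1 (rank 943) and 24.7 in replicate 2 (rank 1425), with the pooled summit 73 bp upstream of the start and that of replicate 2 lying 259 bp from it. For col-142 the signal was 40.1 in the pooled list (rank 1713), 17.5 in replicate 1 (rank 3032) and 27.6 in replicate 2 (rank 1037), 340 bp upstream. Both genes were in the upper part of both lists. At col-80 the pooled summit lay 240 bp upstream, inside an intron of dph-2, and those of replicates 1 and 2 lay 95 and 331 bp upstream. The signal of col-80 was 38.9 in the pooled list (rank 1836), 13.2 in replicate 1 (rank 6205) and 27.6 in replicate 2 (rank 1044). For col-145 it was 34.4 in the pooled list (rank 2480), 23.8 in replicate 1 (rank 1336) and 8.16 in replicate 2 (rank 20413), 160 bp upstream. The rank of col-145 differed 15.3 times between the replicates, the widest gap among the col- genes of the pooled list with a region in both, ahead of col-62 (12.4 times), col-176 (11.7 times), col-80 (5.94 times) and col-12 (5.40 times). At col-93 and col-63 the ranks differed 1.07 and 1.10 times.

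**Figure D2:**
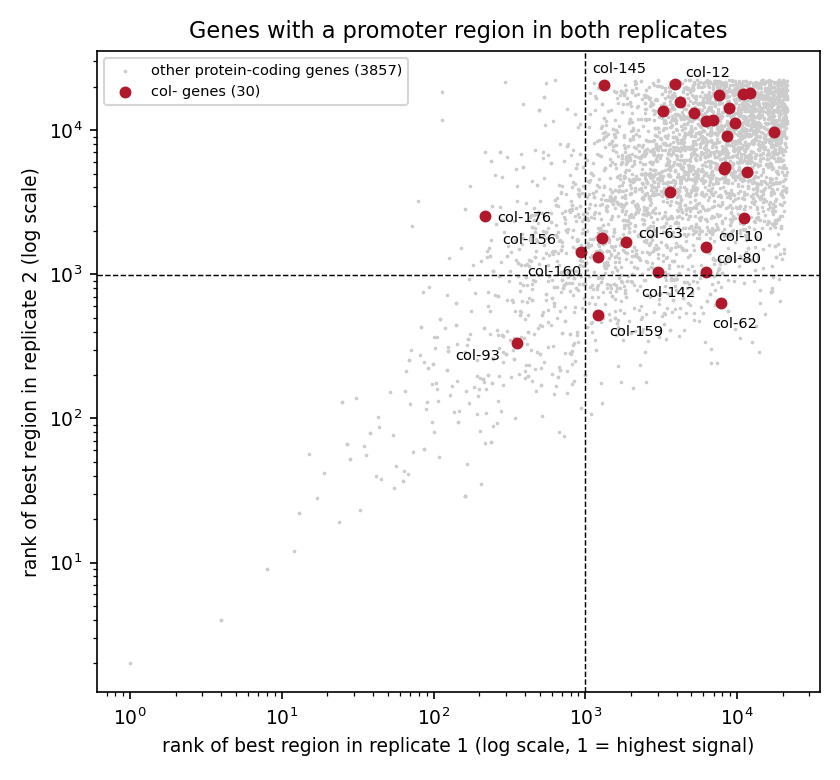
Each point is a gene with a region in both replicate lists, at the rank of its best region in replicate 1 and in replicate 2 on log axes, for 30 col- genes (red) and 3857 other genes (grey), and the dashed lines mark the rank equal to the length of the optimal list. Only col-93 lies in the lower left corner that both lines enclose, while col-176, col-62 and col-145 lie far from the diagonal.

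Over the 30 col- genes with a region in both replicates, the Spearman correlation of the best signal was 0.407, against 0.547 over 3857 other genes. These are descriptions across genes, which are not independent replicates, and both lists share the control alignment. The best regions of the 2 replicates overlapped each other for 22 of the 30 col- genes (73.3%), against 75.1% of the other genes. Of the 44 best pooled regions, 28 (63.6%) were overlapped by a region of both replicates, against 59.7% for other genes. With the replicate lists of the 1988 highest regions, 6 col- genes were reached in both (3.85%, against 3.00%): col-42, col-63, col-93, col-156, col-159 and col-160. These are not all 1 region found in both: at col-42 the summit lay 77 bp downstream of the start in replicate 1 and 452 bp upstream in replicate 2, and the replicate 1 region of col-159 is that of col-160.

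Regions seen in a single replicate were counted at a larger share of col- genes than of other genes. A region in just 1 replicate was found for 55 col- genes (35.3%), 30 in replicate 1 and 25 in replicate 2, against 24.9% of the other genes. Together with the 30 genes of both lists, 85 col- genes (54.5%) had a region in some replicate, against 44.3% of the others. The 30 genes of replicate 1 alone had a median percentile of 31.7 in that list (other such genes 32.4), and the 25 of replicate 2 alone had 30.6 (other such genes 32.8). A q-value of 0.05 or less was reached by 3 of the 30 (10%, against 4.88% of other such genes) and 1 of the 25 (4%, against 6.20%). The 30 genes of both lists stood higher. Their median percentile was 59.4 in replicate 1 (other such genes 64.6) and 64.8 in replicate 2 (other such genes 63.4). The remaining 71 col- genes (45.5%) had no region in either replicate, against 55.7% of the other genes.

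Among further collagens of known expression, col-10 and col-12 had a region in the pooled and both replicate lists, at percentiles 65.5 and 60.4 of the pooled list. col-10, whose promoter is used to drive hypodermal expression, had a signal of 27.7 in the pooled list (rank 4216), 13.2 in replicate 1 (rank 6256) and 23.9 in replicate 2 (rank 1545). Its summit lay 65 bp upstream in the pooled list, 63 bp in replicate 1 and 168 bp in replicate 2. col-12, another hypodermal collagen, had 25.6 in the pooled list (rank 5047), 16.0 in replicate 1 (rank 3899) and 8.02 in replicate 2 (rank 21046), 8 bp downstream of its start. In the pooled list the −log10 q-value was 0.864 for col-10 and 0.656 for col-12, short of a q-value of 0.05, while in replicate 2 that of col-10 was 3.51, past it. For col-19, the adult collagen that marks the larva-to-adult switch, none of the 4 lists held a region in the window, and the nearest optimal summit was 11423 bp away. For col-99, known as a transmembrane collagen with roles in the nervous system, replicate 1 alone held a region, with signal 8.98 (rank 15717).

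The summits at col- genes lay nearer to the start than those at other genes. The median of the 44 was 183 bp upstream, with quartiles of 62.25 and 413.5 bp, against a median of 277 bp (84 to 587) for the other genes. The distance depends on the window: with 2000 bp upstream the median was 469 bp, against 579 bp for the other genes. Between 1 and 200 bp upstream lay 17 of the 44 (38.6%), against 26.2%, and over 500 bp upstream lay 8 (18.2%), against 30.8%. The summit was upstream in 38 genes (86.4%, against 85.7%) and at or after the start in 6 (13.6%, against 14.3%). By annotation 28 summits were intergenic (63.6%, against 57.6%) and 10 in an intron (22.7%, against 16.5%). Another 4 were in a coding exon (9.09%, against 14.3%) and 2 in an untranslated exon (4.55%, against 11.5%). The col- genes also differ from the rest in structure, which bears on how many windows a gene has: 136 of the 156 (87.2%) have 1 annotated start, against 72.5%, and the median gene length is 1220 bp against 2038 bp. Among genes with 1 start, 27.2% of the col- genes had a pooled region, against 23.1% of the others. An optimal peak lay at 2 of these 136 col- genes (1.47%, against 2.09%).

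**Figure D3:**
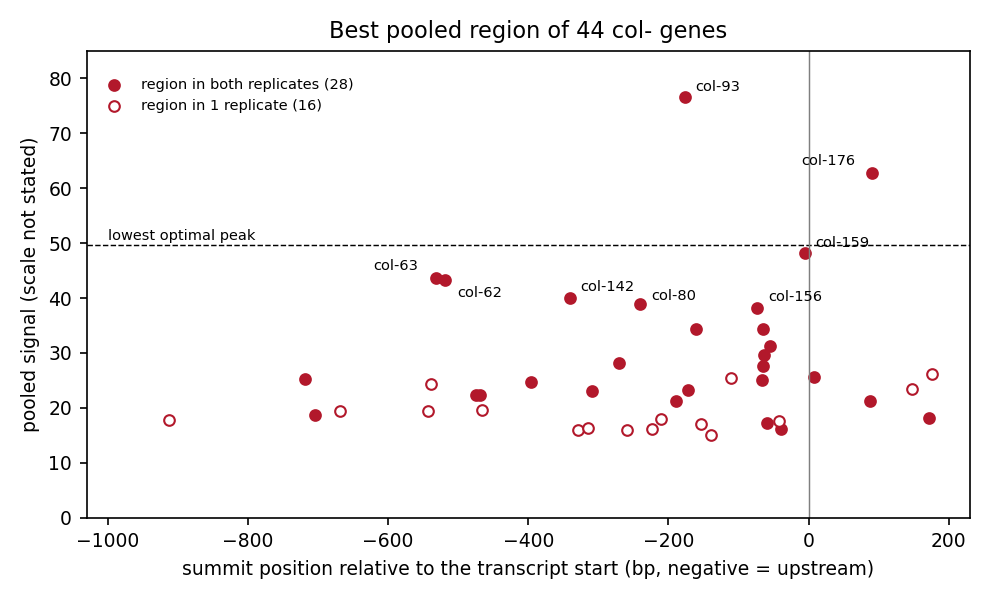
The pooled signal of the best region (vertical axis, scale not stated) is plotted against the position of its summit relative to the transcript start for the 44 col- genes, filled where the gene had a region in both replicates (28) and open where it had one in 1 replicate (16). The fill is by gene and does not show whether both replicates have the plotted region. At col-42 (filled) replicate 1 has none there, and at col-103 (open) regions of both replicates overlap it. Only col-93 and col-176 lie above the dashed line of the lowest optimal peak, and the open points all lie under a signal of 27.7, the value of col-10.

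The letters under the summits were counted within 50 bp, and the direction against other genes depends on that distance. Within 50 bp of the summit, on either strand, GATAA was present in 9 of 43 different col- regions (20.9%), against 27.6% of 4806 regions of other genes. AGGTCA was present in 1 (2.33%), at col-142, against 3.60%. TATAAA, which was chosen after the sequences had been seen, was present in 10 (23.3%), against 11%. Within 100 bp the share for GATAA was 48.8% against 46%, and for AGGTCA 11.6% against 6.70%, so both turned, and within 25 bp that for TATAAA turned to 2.33% against 5.22%. TATAAA is also counted over the whole family: in the 60 bp upstream of a start, on the strand of the gene, 72 of the 156 col- genes (46.2%) hold TATAAA, against 10.5% of the other genes. Col- genes with a pooled region held it in 24 of 44 (54.5%) and those without one in 48 of 112 (42.9%). Among other genes the shares were 10.1% with a pooled region and 10.6% without one. The GC content within 50 bp of the summit had a median of 36.6% at col- genes and 38.6% at other genes.

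The share of col- genes with a candidate region was counted on each chromosome. On chromosome V, 12 of 31 col- genes had a pooled region (38.7%, against 23.1% of the other genes there), and on X 11 of 27 (40.7%, against 32.9%). On IV, which holds the most col- genes, it was 8 of 41 (19.5%, against 27.0%), and on I 3 of 21 (14.3%, against 29.5%). On II it was 5 of 24 (20.8%, against 26.6%) and on III 5 of 12 (41.7%, against 34.1%). In the pooled list the family thus lay above the other genes on III, V and X and below them on I, II and IV, with few genes on each. In replicate 1 the direction turned on II (41.7%, against 30.4%) and on IV (31.7%, against 31%), while in replicate 2 it was as in the pooled list on all 6 chromosomes. Of the 8 strongest genes after col-93 and col-176, 5 lie on V: col-142, col-145, col-156, col-159 and col-160. Of the 50 col- genes within 10 kb of another, 19 (38%) had a pooled region, against 25 of the 106 that lie alone (23.6%). Such neighbours can share a region, but col-3 and col-117 are the only pair that does, as the 44 genes have 43 different best pooled regions. The share for other genes with close neighbours was not counted.

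**Figure D4:**
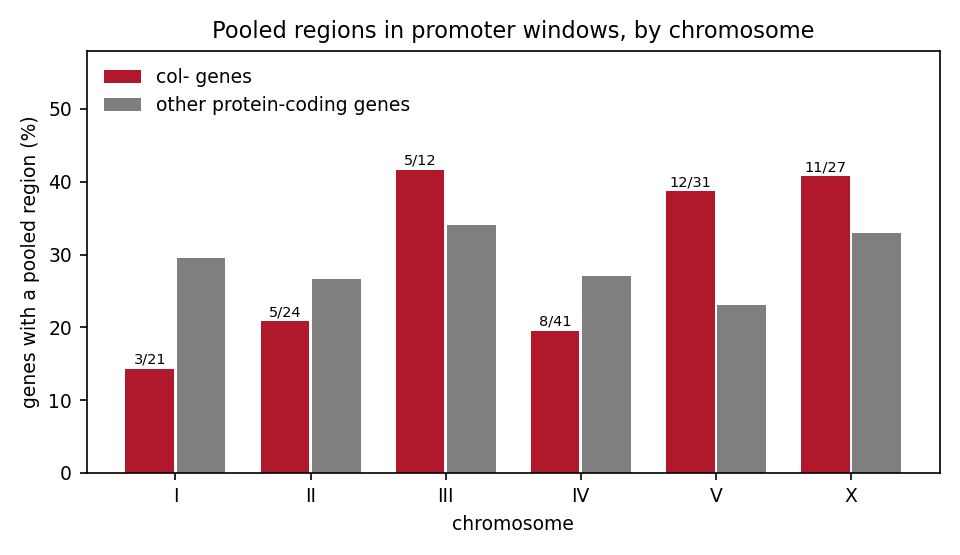
Bars give the percentage of col- genes (red) and of other protein-coding genes (grey) on each chromosome with a pooled region in the promoter window, and the fractions count the col- genes. In this list the red bar is higher than the grey on III, V and X, and lower on I, II and IV, and on II and IV the order turns in the list of replicate 1.

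Near-identical copies limit what can be said of some members. For 8 of the 44 genes the best pooled region has another copy in the genome of at least 100 bp at 90% identity or more. The share for the regions of other genes was not counted. The region of col-12 matches one near col-13 at 99.4% over 168 bp, that of col-162 matches one near col-161 at 97.5% over 161 bp, and that of col-147 matches one near col-146 at 96.4% over 394 bp. The region of col-167 has copies of 90.5% to 92.7% near col-166, col-168, col-170 and col-180. The others are col-137, col-159, col-185 and col-84, whose region has many copies on chromosomes I to V. How the authors placed reads with several matches is not given in the sources used here, so the values of these 8 genes are uncertain.

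Genes related to the cuticle or to collagens, regulators and basement membrane collagens among them, were looked up in 5 lists with 66 members. Of the 66, 1 (1.52%) had an optimal peak, the astacin metalloprotease gene dpy-31, whose product trims procollagens, and 30 (45.5%) had a pooled region, against 2.83% and 28.1% of the protein-coding genes outside the col- family. For dpy-31 the signal was 50.7 in the pooled list (rank 935), 16.3 in replicate 1 (rank 3730) and 34.9 in replicate 2 (rank 551), 544 bp upstream of a start. The peak is among the weakest of the optimal list and, like that of col-176, unequal between the replicates. Of the 17 genes for collagen processing and secretion 9 (52.9%) had a pooled region, at a median percentile of 65.9.

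Of 20 cuticle collagens with other names 7 (35%) had a pooled region, at a median percentile of 39.7, against 28.2% and 52.5 for the col- genes. The highest were rol-6, with 33.0 in the pooled list (rank 2736), 8.55 in replicate 1 (rank 17390) and 28.4 in replicate 2 (rank 959), and sqt-1, with 30.2 in the pooled list (rank 3412), rank 5338 in replicate 1 and rank 3816 in replicate 2. Both are known for mutants with a rolling or squat body. Of 14 other cuticle proteins 4 (28.6%) had a pooled region, the highest at cut-5 (35.6, rank 2284) and cut-2 (28.7, rank 3827), which encode cuticlins. Of 12 regulators of molting and hypodermis 9 (75%) had one, at a median percentile of 42.8. The highest were myrf-1, which encodes a membrane-bound transcription factor, with 46.4 in the pooled list (rank 1191), 27.1 in replicate 1 (rank 932) and 23.6 in replicate 2 (rank 1595), and lin-42, the worm period homolog, with 36.5 in the pooled list (rank 2152). Of the 3 basement membrane collagens, cle-1 alone had a pooled region, with a signal of 17.2. The regulator list thus had a region more often than the col- genes (28.2%) and the other protein-coding genes (28.1%), at a lower median percentile. The number of starts, and so of windows, was not matched between the lists. No member of the regulator list had an optimal peak, against 2.83% of the other protein-coding genes, a share too small to be read from 12 genes.

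**Figure D5:**
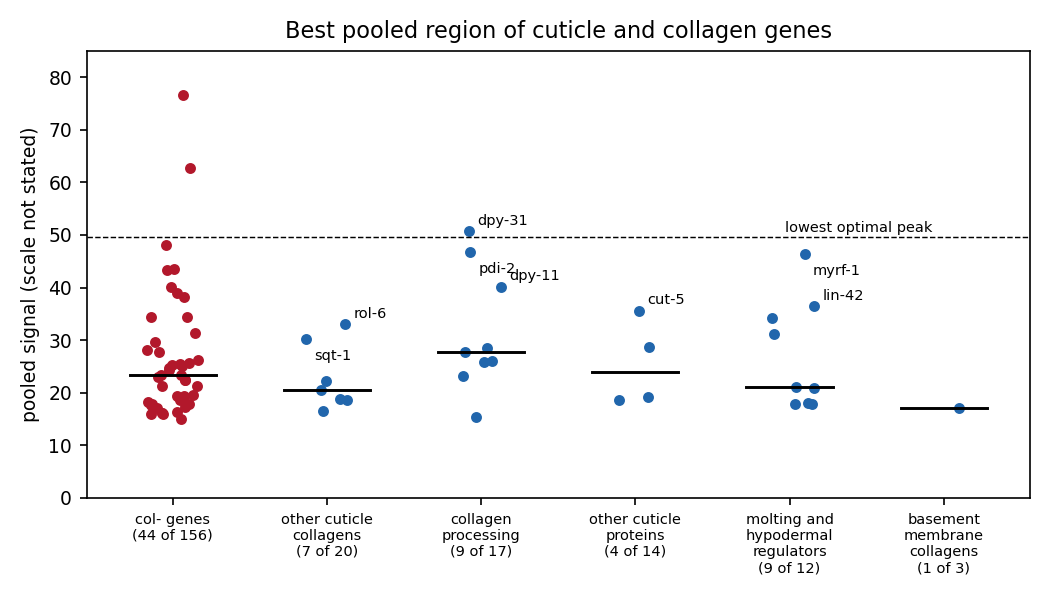
Points give the pooled signal (scale not stated) of the best region of each gene with one, for the col- genes (red) and 5 lists of related genes (blue), black bars give medians, and the numbers under each list count the genes with a region. Above the dashed line of the lowest optimal peak lie 2 col- genes and dpy-31.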

How the data were processed

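ChIP-seq of eGFP-tagged NHR-10 was analysed in 1 group of 2 replicates, from the 4 lists of the ce11 build. Per the file descriptions deposited by the authors these are peaks and background for each replicate and for both pooled, and the optimal list after thresholding by the irreproducible discovery rate. The deposited signal value of each region and the authors' −log10 q-value were used as given. The scale of the signal, the aligner, the peak caller and its cut were each not given in the sources used here. The lists hold no read counts, so depth and precision are unknown. The pooled list had 17447 entries, of which 17445 were different intervals, and a repeated interval was kept once with its higher signal. The ce10 lists were not used.

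Genes came from Ensembl release 115 on WBcel235, which is ce11, and sequence and products from RefSeq. For each gene the region of highest signal with its summit in the window was taken. Scripts in Python 3.11.15 with numpy 2.4.6 and scipy 1.17.1 were tested on simulated data, and copies were sought with blastn 2.17.0. Alternatives changed the window (500 or 2000 bp upstream), the assignment, the number of regions, the replicate and the motif window. The members, gene lists and tests were chosen with earlier results of these data known. Named genes were those with an optimal peak, the 10 of highest pooled signal, the 5 with the largest ratio of replicate ranks, the 3 highest without an optimal peak, and col-10, col-19 and col-99, plus of each related list those with an optimal peak or else its 2 highest. Neighbours of these and the genes in counts of 5 or fewer, or with shared copies, were named after their values were seen.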

Additional observations from a re-analysis of the deposited data

How the results depend on the processing

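The optimal count of 2 col- genes stayed at 2 to 3 under other windows and assignments. It was 2 with 500 bp upstream (other genes 2.10%) and 3 with 2000 bp (other genes 3.88%). With any base of the region counted it was 2 (other genes 3.15%), and by nearest start only 2 (other genes 2.28%). With 1 replicate's strongest regions in its place it was 3 in either (other genes 2.83% in replicate 1 and 2.71% in replicate 2). With only the optimal peaks above the median signal it was 1, col-93 (other genes 1.48%). The pooled count ran from 38 to 65 of the 156 under other windows, assignments and single replicate lists. It was 38 with 500 bp upstream (other genes 20.9%) and 65 with 2000 bp (other genes 36.5%). With any base of the region counted it was 56 (other genes 31.8%), and by nearest start only 42 (other genes 24.0%). In each of these the share of col- genes was above that of the other genes. The pooled count was 37 among genes with 1 start (27.2%, against 23.1%). At a q-value of 0.05 or less it was 11 (7.05%, against 7.6%). These 2 alternatives were chosen after seeing the data. The median percentile of 52.5 ran from 42.7 to 49.6 in single replicates, and the Spearman correlation from 0.362 to 0.493 under other windows or overlapping regions. With 2 times as many regions the number of col- genes among the strongest of both replicates was 6 in place of 1. The median summit distance was 469 bp with a window of 2000 bp upstream and 168 to 188.5 bp in single replicates (579 bp and 294 to 298 bp for other genes). GATAA was in 4 regions within 25 bp of the summit (9.30%, against 15.1% at other genes) and in 21 within 100 bp (48.8%, against 46%). AGGTCA was in 5 within 100 bp (11.6%, against 6.70%), and TATAAA in 1 within 25 bp (2.33%, against 5.22%) and 12 within 100 bp (27.9%, against 21.2%), so the direction against other genes turned with the motif window for all 3. Among related genes the optimal count of 1 was 0 with a window of 500 bp, 0 with only the peaks above the median, and 1 to 2 with single replicates. In each case the alternative itself changes how many regions, letters or bases are read. No paired analysis was possible because there was 1 group and no test. With 2 replicates and no read counts, the error of a single rank is known only from the difference between the 2 lists.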
